A study of Mus musculus with 12 samples.

Results

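The replication-dependent core histones are the genes whose proteins package new DNA during S phase. They were taken as the rows of the ribosome footprint table whose symbols begin with H2ac, H2bc, H3c or H4c and end in a number. This gave 61 of 22034 symbols, with 18 in the H2A class, 18 in H2B, 12 in H3 and 13 in H4. A filter on low counts passed 53 of them, which were 14 H2A, 17 H2B, 10 H3 and 12 H4 genes. The other 8 have counts only.

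Footprints are stretches of mRNA protected by ribosomes from RNase I, here taken from 80S ribosomes after a sucrose gradient. The cells, from the mouse embryonic stem cell line ES-E14TG2a, were grown in 2i and LIF, and every group carried a dTAG degron on eRF1, the factor that reads stop codons. The compound dTAG-13 sends tagged proteins to degradation. Gcn2 is a stress kinase acting on the initiation factor eIF2. Wild-type and Gcn2 knockout cells were compared, each either untreated or after 1 h in 500 nM dTAG-13. These 4 groups have 2 biological replicates each, called A and B. Poly(A) RNA comes from the wild-type groups alone, also in 2 replicates each. The labels name no vehicle control, no treated cells without the tag and no number of knockout clones, so effects of the compound and of eRF1 loss cannot be told apart.

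Core histone proteins form the nucleosome, in which H3 and H4 make a central tetramer flanked by H2A and H2B dimers. The genes lie in clusters, many H2A and H2B genes sit head to head on opposite strands, and many copies differ little in coding sequence. Their mRNAs end in a stem-loop in place of a poly(A) tail. The stem-loop binding protein SLBP binds it in processing, translation and decay. Embryonic stem cells divide fast and spend much of their cycle in S phase, when these genes are active. Copies with near-identical sequence share reads, and the sources used here do not say how such reads were assigned. Values of single genes are therefore uncertain where a close copy exists, and each class is also given as a sum. A sum does not depend on how shared reads were split within a class. If such reads were dropped, the sums and their ratios hold only reads that fit a single copy. CPM below are counts set against each library's TMM-scaled size. No coding length was used, so levels are not compared between genes per length, and shares are shares of counts.

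Upstream sequences of 4 members are shown because the results below turn on them: H2bc14 and H4c6 rose with dTAG-13, whereas H2bc18 and H4c16, each with a large part of its class's counts, did not pass the test. The sequences are the 250 bases before the RefSeq gene start in GRCm38.p6, 5′ to 3′ on the strand of the gene. Capitals mark 3 motifs on either strand. The first is ATTTGCAT, the octamer that Oct factors bind and that is known from H2B promoters. TATAAA is the usual core of the box near many transcription starts. The other one, CCAAT, is bound by the factor NF-Y. H2bc14 is at chr13:21721794-21722043 (plus strand), H2bc18 at chr3:96269450-96269699 (plus), H4c6 at chr13:23551669-23551918 (minus) and H4c16 at chr6:136804432-136804681 (minus).
H2bc14: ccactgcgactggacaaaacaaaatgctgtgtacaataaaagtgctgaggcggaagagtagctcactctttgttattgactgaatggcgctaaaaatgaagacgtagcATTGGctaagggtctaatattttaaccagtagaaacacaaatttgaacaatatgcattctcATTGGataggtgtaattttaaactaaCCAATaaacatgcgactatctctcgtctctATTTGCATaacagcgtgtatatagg
H2bc18: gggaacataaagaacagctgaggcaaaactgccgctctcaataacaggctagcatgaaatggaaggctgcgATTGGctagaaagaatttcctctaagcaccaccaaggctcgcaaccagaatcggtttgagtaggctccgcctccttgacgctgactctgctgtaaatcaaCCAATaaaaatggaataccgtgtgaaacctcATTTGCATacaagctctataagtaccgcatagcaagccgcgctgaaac
H4c6: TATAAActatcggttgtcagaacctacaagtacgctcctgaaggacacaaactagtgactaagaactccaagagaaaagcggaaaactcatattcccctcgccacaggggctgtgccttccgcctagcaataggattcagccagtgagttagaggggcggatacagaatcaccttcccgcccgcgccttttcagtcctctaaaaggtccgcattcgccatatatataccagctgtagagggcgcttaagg
H4c16: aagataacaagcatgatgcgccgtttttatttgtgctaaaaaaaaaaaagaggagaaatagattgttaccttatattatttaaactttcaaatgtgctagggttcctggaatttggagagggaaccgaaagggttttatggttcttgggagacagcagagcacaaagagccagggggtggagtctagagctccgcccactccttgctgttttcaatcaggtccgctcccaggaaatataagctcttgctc

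The octamer and CCAAT were in the shown sequence of H2bc14, which rose, and in that of H2bc18, which did not pass. The shown H4c6 sequence held TATAAA only, at its far end, and that of H4c16 held none of the 3 motifs. Over windows of 250 bases before to 50 after the start, available for 53 members (tested or not), the octamer was found in 6 of 17 H2A and 7 of 14 H2B genes and in 0 of 10 H3 and 0 of 12 H4 genes. It was found in 1.74% of the 32851 windows of all genes. CCAAT was in all 17 H2A, 14 H2B and 10 H3 windows and in 3 of 12 H4 windows, against 37.4% of all windows. TATAAA was in 11 of 17 H2A, 7 of 14 H2B, 4 of 10 H3 and 8 of 12 H4 windows, against 13.6%. Windows of head-to-head neighbours can overlap, so the same match may be counted for an H2A and an H2B gene. Neighbouring matches may share a base, and a match is a run of letters and not a measured site.

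Footprint libraries held between 7874804 and 19691716 counts, and those treated with dTAG-13 were the 4 smallest, with treated wild-type A the smallest of all. The core histones took 0.743% to 0.937% of the counts of untreated libraries and 1.04% to 1.39% of treated ones. Of 13 embryonic stem cell markers, the summed level was 10185 to 11240 CPM, with Pou5f1 at 1048 to 1395 CPM in all 8 libraries. Fibroblast markers summed to 6.66 to 15.1 CPM, with S100a4 and Postn at 0 throughout. In single-gene tests, edgeR's quasi-likelihood model was fitted to the 8 footprint libraries together (12267 genes), and calls were made at 0.05 on p-values adjusted over all genes by the method of Benjamini and Hochberg. Nothing in the labels says that replicates come from separate clones or days, so p-values measure only the spread between these libraries.

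Each of the 4 class sums was higher with dTAG-13, in wild-type and in knockout cells, and in none of them did treated and untreated libraries overlap. The H2A sum was 790 and 862 CPM in untreated wild-type cells (A, then B, throughout), 1600 and 1263 CPM with dTAG-13, 590 and 866 CPM in untreated knockout cells and 1674 and 1832 CPM in treated ones. The H3 sum was 1358 and 1027, 2846 and 1917, 1120 and 1244, and 2866 and 2830 CPM in the same order. In both classes the treated knockout libraries lay close together, and treated wild-type A lay above B.

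The H2B sum was 3059 and 3028 CPM in untreated wild-type cells, 5334 and 3765 CPM in treated ones, 2687 and 3247 CPM in untreated knockout cells and 4791 and 4751 CPM in treated ones. For H4 the values were 3208 and 3072, 4707 and 3554, 2712 and 3698, and 4875 and 5001 CPM. The lowest treated H4 library, wild-type B at 3554 CPM, was below untreated knockout B at 3698 CPM, so treated and untreated H4 libraries were apart within each genotype and not across genotypes.

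As log2 differences of the group means of log2 CPM, the changes of the sums in wild-type cells were 0.98 for H3, 0.78 for H2A, 0.56 for H2B and 0.38 for H4. In knockout cells they were 1.29 for H2A, 1.27 for H3, 0.69 for H2B and 0.64 for H4. These sums carry no p-value, and 2 against 2 libraries could not give an exact two-sided permutation p below 0.333. Without treated wild-type A the H4 change was 0.18 and that of H2B 0.31, and without treated wild-type B the H4 change was 0.58. Without untreated knockout A the knockout change of H4 was 0.42.

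**Figure D1:**
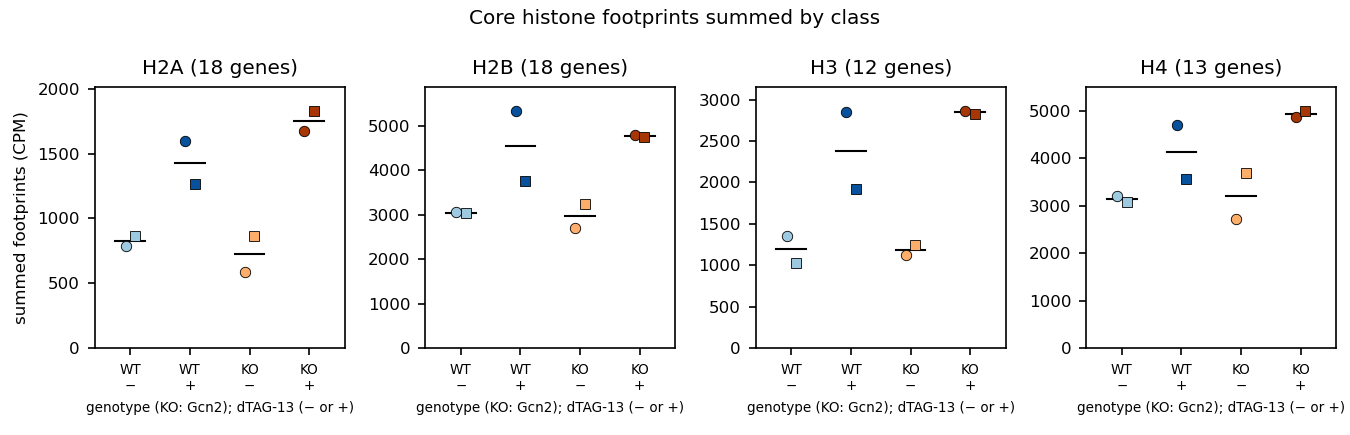
Summed footprints of each core histone class in CPM (vertical axes from 0, different scales), for wild-type (WT) and Gcn2 knockout (KO) cells without (−) and with (+) dTAG-13; circles are replicate A, squares replicate B, and bars the mean of both. Within each genotype the treated libraries lie above the untreated ones in every class, and H3 goes from 1358 and 1027 to 2846 and 1917 CPM in wild-type cells.

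The make-up of the histone footprints moved between classes. H3 counts per H4 count were 0.423 and 0.334 in untreated wild-type cells, 0.605 and 0.539 in treated ones, 0.413 and 0.336 in untreated knockout cells and 0.588 and 0.566 in treated ones. The 4 treated libraries thus all lay above the 4 untreated ones. H2A per H4 went from a range of 0.217 to 0.281 in the untreated libraries to 0.340 to 0.366 in the treated, and H2A per H2B from 0.219 to 0.285 to a range of 0.300 to 0.386.

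H2B per H3 moved the other way, from 2.25 to 2.95 in untreated libraries to 1.67 to 1.96 in treated ones. H2B per H4 overlapped, with 0.878 to 0.991 untreated and 0.950 to 1.13 treated, and so did H2A per H3, with 0.527 to 0.839 and 0.562 to 0.659. H2A and H3 therefore gained share against H2B and H4, while the ratio within each of those pairs stayed within overlapping ranges. These ratios are descriptions of 8 libraries, with no test.

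Single genes were tested in wild-type cells first. There 22 of the 53 tested members rose and 0 fell, which is 41.5% rising, against 2.94% of all 12267 genes rising and 1.94% falling. By class, 9 of 17 H2B, 6 of 14 H2A, 5 of 10 H3 and 2 of 12 H4 genes rose. The median log2 change was 0.74 over the members (all genes −0.01), and by class it was 1.06 for H3, 0.94 for H2B, 0.73 for H2A and 0.50 for H4. CPM of treated libraries lay above those of untreated ones without overlap for 36 members, against 22.3% of all genes, and below them for 2, H2ac22 and H3c10, against 22.8% of all genes. With the wild-type libraries fitted alone, 2 members were called, H2ac6 and H2bc14.

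In knockout cells 35 members rose and 1 fell, which is 66.0% rising, against 3.16% of all genes rising and 5.71% falling. By class, 12 of 17 H2B, 8 of 14 H2A, 8 of 10 H3 and 7 of 12 H4 genes rose, and the H4 gene H4c14 fell. Median log2 changes were 1.55 for H2B, 1.33 for H3, 1.00 for H2A and 0.77 for H4, beside 1.28 over the members and 0.04 over all genes. Groups did not overlap for 43 members with higher values (32.5% of all genes) and 4 with lower values (27% of all genes), which were H2bc1, H2bc18, H3c10 and H4c14. With the knockout libraries fitted alone, all 36 calls held. Without treated knockout B, 23 members were called. With library totals in place of TMM, rising genes were 37.3% of all genes called in wild-type cells (60.3% with TMM) and 14.1% in the knockout (35.6% with TMM). The knockout median of all genes was then −0.09, and 21 members rose in wild-type and 32 in knockout cells.

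The 22 members that rose in wild-type cells all rose in the knockout, where they make up 22 of 35. The 13 called in the knockout alone were H2ac4, H2ac12, H2bc3, H2bc8, H2bc23, H3c3, H3c6, H3c13, H4c1, H4c2, H4c8, H4c9 and H4c11. Of these 13, 5 are H4 genes. A call in one genotype only does not show that the genotypes differ, and the difference itself is given further on.

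**Figure D2:**
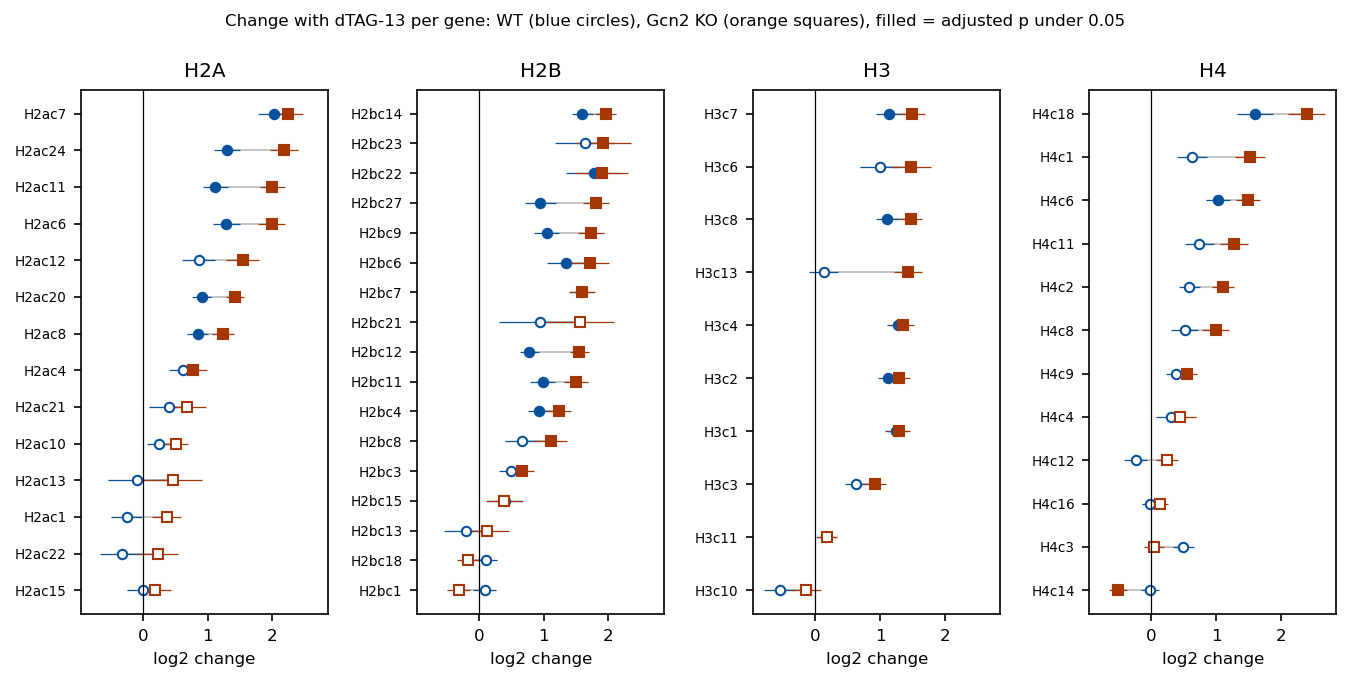
Log2 change with dTAG-13 (horizontal axis) of each of the 53 tested members, by class; circles are wild-type cells, squares Gcn2 knockout cells, filled symbols have an adjusted p under 0.05 and bars are standard errors. In knockout cells the filled squares number 35 to the right of 0 and 1, H4c14, to the left.

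H2A genes encode the histone that joins H2B in a dimer. Among the H2A genes with most counts, H2ac4 held 24.6% of the class and measured 230 and 233 CPM in untreated wild-type cells, 421 and 289 CPM in treated ones, 165 and 265 CPM in untreated knockout cells and 341 and 391 CPM in treated ones. Groups did not overlap in either genotype. The rise passed narrowly in the knockout (log2 change 0.77, SE 0.215, adjusted p = 0.0497) and not in wild-type cells (0.61, SE 0.215, adjusted p = 0.139). The knockout call was lost without untreated A (adjusted p = 0.254) and without either treated library.

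H2ac20, on chromosome 3, held 13.8% and measured 92.7 and 124.9, 188 and 219, 87.3 and 97.0, and 254 and 240 CPM in the same order. Each treated library lay above each untreated one, across both genotypes. The gene rose 1.88-fold in wild-type (SE 0.145 in log2, adjusted p = 0.00468) and 2.68-fold in knockout cells (SE 0.147, adjusted p = 0.000216). H2ac24, on chromosome 13 and with 13.6% of the class, measured 90.5 and 65.1, 230 and 154, 58.1 and 76.6, and 297 and 315 CPM. Its treated libraries were all higher, the knockout ones most, with a 2.46-fold rise in wild-type (SE 0.209, adjusted p = 0.0063) and a 4.54-fold rise in knockout cells (SE 0.213, adjusted p = 0.000271).

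Of all H2A genes called, H2ac7 had the largest rise in both genotypes, with 2.24% of the class counts. It measured 8.44 and 12.1 CPM, then 31.8 and 50.5 CPM with dTAG-13 in wild-type cells, and 8.22 and 10.9 CPM, then 46.3 and 44.1 CPM in the knockout. The groups were far apart, with log2 changes of 2.02 in wild-type (SE 0.235, adjusted p = 0.00133) and 2.24 in knockout cells (SE 0.237, adjusted p = 0.000301). H2ac1, known as a testis histone gene, measured 14.9 to 27.2 CPM over the 8 libraries and was not called in either genotype.

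H2B genes encode the partner of H2A. Here the gene with most counts was among the tested genes not called, which numbered 8 of 17 in wild-type and 5 of 17 in knockout cells. H2bc18, on chromosome 3 and with 33.1% of H2B counts, measured 1126 and 1327 CPM in untreated wild-type cells, 1575 and 1062 CPM in treated ones, 1227 and 1451 CPM in untreated knockout cells and 1197 and 1184 CPM in treated ones. The wild-type groups overlapped, and the treated knockout libraries lay slightly below the untreated ones. The log2 changes were 0.10 in wild-type (SE 0.172, adjusted p = 0.805) and −0.17 in knockout cells (SE 0.172, adjusted p = 0.6). With H2bc18 left out, the H2B sum changed by 0.81 in wild-type and by 1.15 in knockout cells on the log2 scale.

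H2bc3 held 24.3% of the class and measured 844 and 673, 1314 and 829, 713 and 753, and 1173 and 1142 CPM. Wild-type groups overlapped and knockout groups did not, and the rise passed in the knockout only (log2 change 0.66, SE 0.186, adjusted p = 0.0469), against 0.50 (SE 0.186, adjusted p = 0.163) in wild-type cells. H2bc8, with 6.95%, measured 227 and 203, 430 and 251, 126 and 198, and 355 and 341 CPM. Its groups did not overlap, and it rose 2.15-fold in the knockout (SE 0.26, adjusted p = 0.0306), while the wild-type log2 change was 0.66 (SE 0.258, adjusted p = 0.204). Leaving out any single knockout library ended the call of H2bc3, and for H2bc8 this held for 3 of the 4.

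H2bc14, with 6.52% of the class, rose most in the knockout among H2B genes. It measured 118.9 and 111.7 CPM untreated and 389 and 307 CPM treated in wild-type cells, and 91.6 and 128 CPM untreated and 415 and 438 CPM treated in the knockout. All 4 treated libraries lay above all 4 untreated ones, and the rise was 3.02-fold in wild-type (SE 0.161, adjusted p = 0.000738) and 3.88-fold in knockout cells (SE 0.163, adjusted p = 6.96e-05). Of genes with few counts, H2bc22 (0.556% of the class) rose most in wild-type cells, from 10.2 and 6.19 to 42.9 and 15.1 CPM, and went from 9.85 and 10.5 to 36.6 and 39.1 CPM in the knockout. Its treated libraries were higher in both genotypes (log2 change 1.77, SE 0.424, adjusted p = 0.0484, and 1.90, SE 0.411, adjusted p = 0.0224), but treated wild-type A and B were far apart. Without that library A the wild-type change was 0.87 (adjusted p = 0.102), and leaving out any 1 library of a genotype but treated wild-type B ended that genotype's call.

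H3 genes encode the histone whose tail carries many of the known regulatory marks. In this class the treated libraries were higher for most genes. H3c3 held 21.8% and measured 354 and 249, 533 and 400, 307 and 308, and 605 and 557 CPM. Groups did not overlap, with a log2 change of 0.63 (SE 0.17, adjusted p = 0.0549) in wild-type cells and a rise of 1.89-fold in the knockout (SE 0.17, adjusted p = 0.00583). The knockout call was lost when any single knockout library was left out, at adjusted p between 0.0522 and 0.0807.

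H3c1, the second by counts, measured 261 and 195, 645 and 443, 210 and 226, and 521 and 544 CPM. Treated libraries were all higher, and the rise was 2.38-fold in wild-type (SE 0.176, adjusted p = 0.00299) and 2.45-fold in knockout cells (SE 0.177, adjusted p = 0.00104). H3c6, with 18.4%, measured 241 and 169, 544 and 277, 172 and 241, and 585 and 570 CPM. Its groups did not overlap, its treated wild-type libraries were far apart, and only the knockout rise passed (2.80-fold, SE 0.301, adjusted p = 0.0172), against a wild-type log2 change of 1.00 (SE 0.299, adjusted p = 0.1). Without untreated knockout A, or without either treated knockout library, the H3c6 call was lost.

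The largest called rise among H3 genes was that of H3c4 in wild-type cells, from 65.7 and 53.0 to 171.6 and 118.9 CPM (2.44-fold, SE 0.175, adjusted p = 0.00248). In the knockout H3c4 went from 54.3 and 45.9 to 135.5 and 120.6 CPM (2.56-fold, SE 0.176, adjusted p = 0.000774). The largest in the knockout was that of H3c7, from 100.9 and 87.8 to 280 and 253 CPM (2.83-fold, SE 0.203, adjusted p = 0.00133), with wild-type values of 117 and 90.0 and then 282 and 175 CPM (2.20-fold, SE 0.202, adjusted p = 0.0102). For both genes each treated library exceeded each untreated one.

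Genes whose RefSeq synonyms name H3.1 (H3c1, H3c8, H3c10 and H3c11) and H3.2 (the other 8 H3 genes) were also summed. The H3.1 sum changed by 1.13 in wild-type and 1.31 in knockout cells on the log2 scale, and that of H3.2 by 0.90 and 1.25. H3c10 went against its group, at 4.85 and 4.19 CPM untreated and 3.32 and 2.93 CPM treated in wild-type cells (log2 change −0.55, adjusted p = 0.232), and H3c11 was not called in either genotype. These were picked out after their values were seen.

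H4 had the smallest change as a sum, and its most counted genes differed among themselves. H4c6 held 19.5% of H4 counts and measured 470 and 409 CPM in untreated wild-type cells, 978 and 811 CPM in treated ones, 344 and 533 CPM in untreated knockout cells and 1199 and 1264 CPM in treated ones. All treated libraries were higher, by 2.04-fold in wild-type (SE 0.182, adjusted p = 0.00823) and 2.81-fold in knockout cells (SE 0.184, adjusted p = 0.000632). Without H4c6 the H4 sum changed by 0.24 in wild-type and 0.44 in knockout cells on the log2 scale.

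H4c16, a lone gene on chromosome 6, held 19.4% and measured 715 and 767, 792 and 672, 658 and 794, and 797 and 792 CPM. Its groups overlapped in both genotypes, with log2 changes of −0.02 in wild-type (SE 0.131, adjusted p = 0.961) and 0.13 in knockout cells (SE 0.131, adjusted p = 0.593). H4c4, with 16.6%, measured 593 and 499, 868 and 486, 471 and 662, and 772 and 771 CPM. Wild-type groups overlapped, knockout groups did not, and neither change passed (0.31, SE 0.242, adjusted p = 0.551, and 0.44, SE 0.242, adjusted p = 0.296).

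H4c14, on chromosome 3 and with 11.5% of the class, was the only member to fall. It measured 430 and 460 CPM untreated and 478 and 399 CPM treated in wild-type cells, and 458 and 588 CPM untreated and 354 and 374 CPM treated in the knockout. The wild-type groups overlapped (log2 change −0.02, SE 0.139, adjusted p = 0.954). The knockout groups did not, and H4c14 fell by 0.52 on the log2 scale (SE 0.139, adjusted p = 0.0349), against a class sum that was higher. This call was lost without untreated knockout B (adjusted p = 0.217) and without either treated knockout library. The largest called rise in the class was that of H4c18 (0.155% of the counts), from 3.35 and 2.46 to 10.2 and 7.79 CPM in wild-type cells (log2 change 1.60, SE 0.275, adjusted p = 0.0064) and from 1.68 and 2.16 to 7.998 and 12.2 CPM in the knockout (2.41, SE 0.285, adjusted p = 0.000402).

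**Figure D3:**
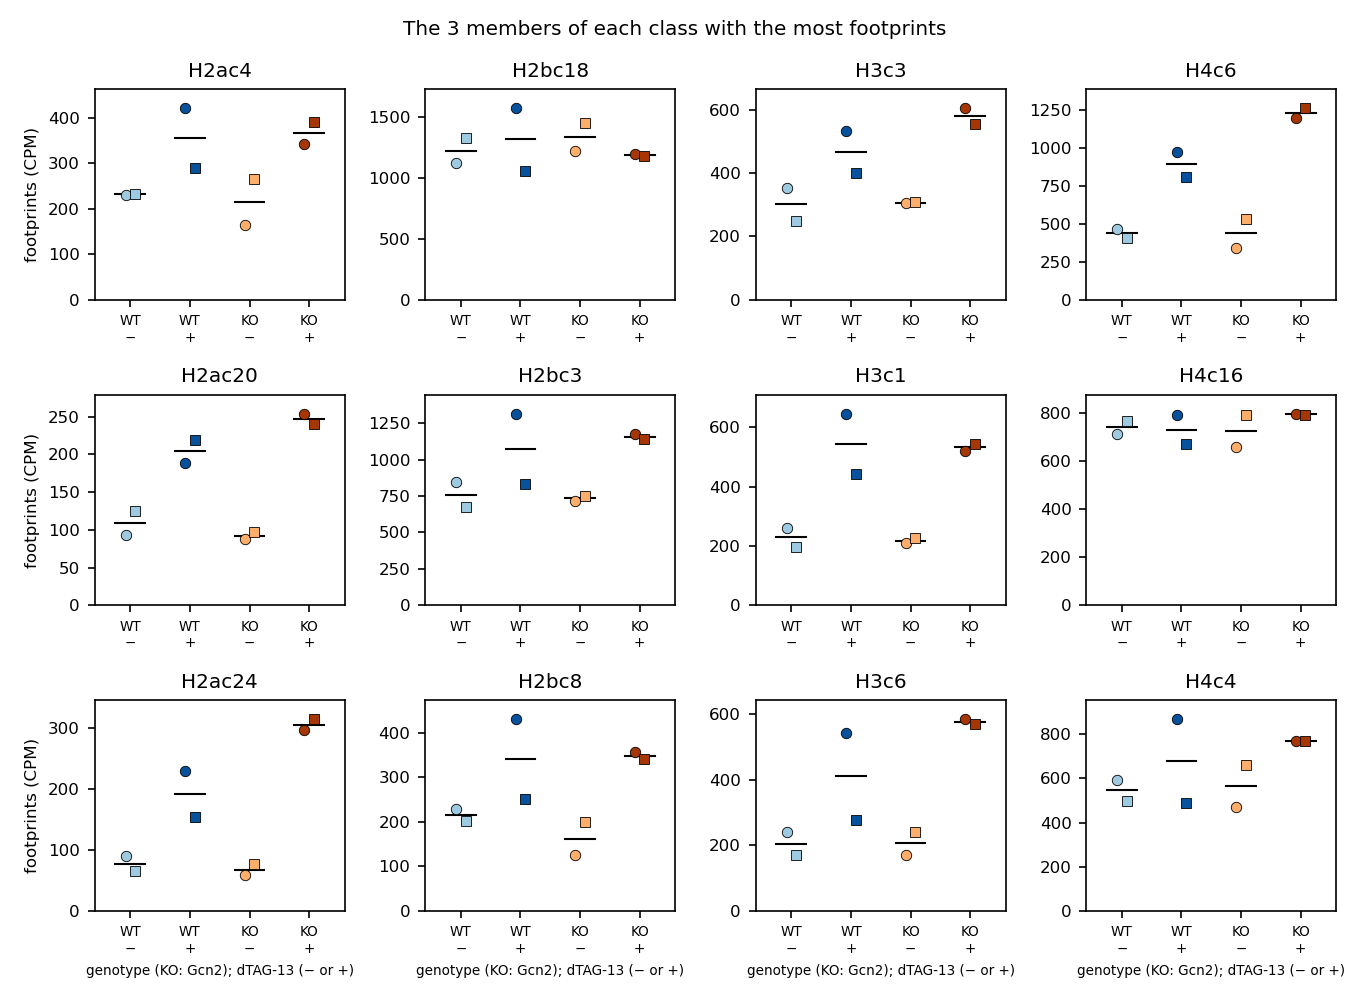
Footprints in CPM (vertical axes from 0, different scales) of the 3 genes with most counts in each class, for wild-type (WT) and knockout (KO) cells without (−) and with (+) dTAG-13; circles are replicate A, squares replicate B, and bars their mean. H2bc18 and H4c16 show overlapping wild-type groups, whereas H4c6 goes from 470 and 409 to 978 and 811 CPM in wild-type cells.

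H2bc18, H4c14 and H4c16, picked out after their values were seen, together gave 27.0% and 31.98% of core histone counts in untreated wild-type cells and 19.6% and 20.3% in treated ones. In the knockout they gave 33.0% and 31.3% without and 16.5% and 16.3% with dTAG-13. Their share was thus lower in each of the 4 treated libraries than in any untreated one. H2bc18 and H4c14 lie in the chromosome 3 group and H4c16 on chromosome 6. The chromosome 13 members numbered 47, of which 45 were tested, with 20 rising in wild-type and 32 in knockout cells and 0 falling in either. Of the 10 chromosome 3 members 6 were tested, and 1 rose in wild-type cells, while 2 rose and 1 fell in the knockout. Of all genes 2.94% rose and 1.94% fell in wild-type cells, and 3.16% rose and 5.71% fell in the knockout. The median log2 changes of tested members were 0.78 in wild-type and 1.28 in knockout cells for chromosome 13, and 0.26 and 1.05 for chromosome 3. As sums of all members, chromosome 13 changed by 0.77 and 1.13 on the log2 scale, and chromosome 3 by 0.13 and −0.08. The chromosome 3 sum is mostly H2bc18 and H4c14, with 22532 and 8609 of its 33471 counts in untreated wild-type A. Its contrast with chromosome 13 thus rests mainly on these picked genes. The H2A genes of chromosome 3, mostly H2ac20, changed as a sum by 0.905 in wild-type and 1.395 in knockout cells. Its H3 genes changed by 0.14 and 1.47. H2ac20, described above, is a chromosome 3 gene that rose in both genotypes.

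**Figure D4:**
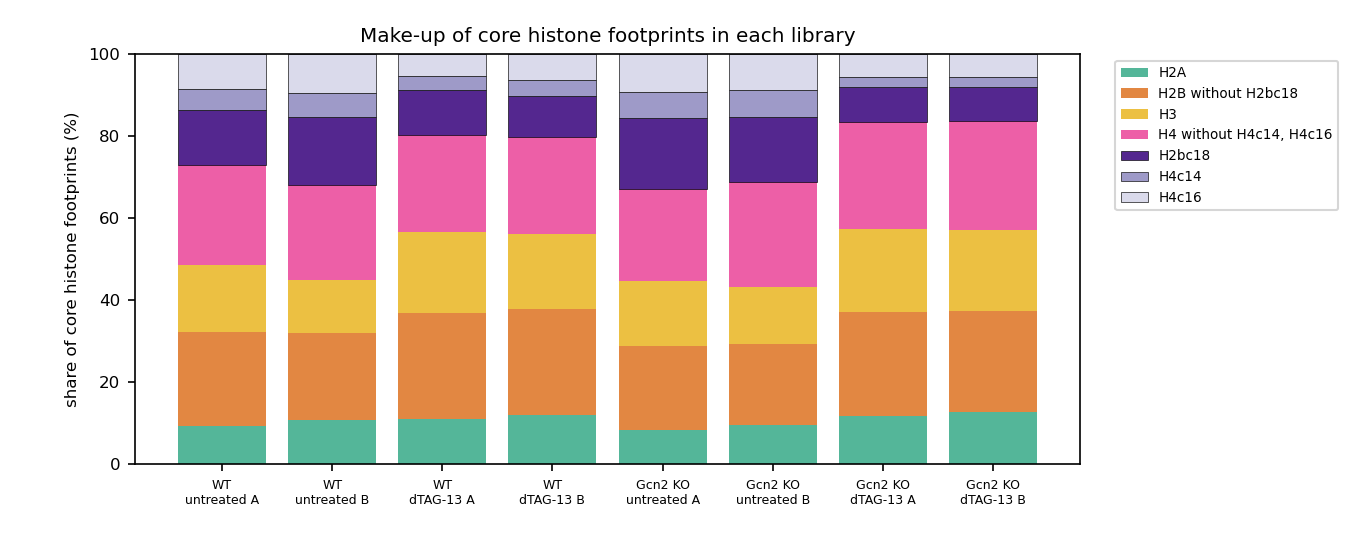
Make-up of core histone footprints in each of the 8 libraries, as a percentage of core histone counts (vertical axis, 0 to 100), with H2bc18, H4c14 and H4c16 drawn apart from the rest of their classes. The 3 drawn-apart genes take 27.0% to 33.0% of an untreated library and 16.3% to 20.3% of a treated one.

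Strands were taken from the promoter windows, available for 53 members. Among these, head-to-head pairs of an H2A and an H2B gene, with starts under 500 bases apart on opposite strands, numbered 9. H2bc4 and H2bc21, which lie beside H2ac6 and H2ac20, had no window, so pairs with them were left out. H2ac6 and H2bc4 both rose in each genotype. In 8 of the 9 pairs both genes were tested. In the knockout both genes rose in 4 pairs, 1 gene in 1 pair and neither in 3. In wild-type cells both rose in 2, 1 rose in 3 and neither in 3. The pair H2ac7 and H2bc7, with starts 174 bases apart, had log2 changes of 2.02 and 1.58 in wild-type and of 2.24 and 1.60 in knockout cells. In the pair H2ac22 and H2bc22 the H2A gene changed by −0.33 and 0.23, and was not called in either genotype, beside 1.77 and 1.90 for the H2B gene. This was the pair in which 1 gene rose in the knockout.

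The next comparison asked whether the response to dTAG-13 depended on Gcn2. The change in knockout cells less that in wild-type cells was positive for 48 of 53 members, with a median of 0.36 on the log2 scale (0.01 over all genes). By class it was positive for 14 of 14 H2A, 14 of 17 H2B, 10 of 10 H3 and 10 of 12 H4 genes. Of the members, 0 passed, against 0.0489% of all genes. At an unadjusted p under 0.05 there were 11 members, with no share of all genes given at that threshold. With DESeq2 2 passed (H2bc12 and H3c13), and without the low-count filter 4. With replicate letters as a block 0 passed, and with a block within each genotype, added after seeing the data, 14 passed, 13 of them larger in the knockout. The share of all genes passing under these alternatives is not given here, so these counts are not read as particular to the histones. For the class sums the differences were 0.51 for H2A, 0.29 for H3, 0.26 for H4 and 0.13 for H2B. The largest single difference was that of H3c13, on chromosome 3. It measured 18.6 and 24.7 CPM, then 28.0 and 20.01 CPM with dTAG-13 in wild-type cells, and 13.8 and 21.6 CPM, then 48.2 and 47.5 CPM in the knockout. Only the treated knockout libraries were high (difference 1.31, SE 0.314, adjusted p = 0.19, and adjusted p = 0.0102 with the block within each genotype).

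Treated knockout cells were also set against treated wild-type cells, which are the same libraries as above. At an unadjusted p under 0.05 there were 13 members, with no share of all genes given at that threshold. After adjustment 2 members were higher and 0 lower, against 1.86% of all genes called higher and 1.92% lower. They were H2bc27, 3.43-fold (SE 0.216 in log2, adjusted p = 0.00191), and H3c13, 2.02-fold (SE 0.223, adjusted p = 0.0304). H2bc27 measured 3.50 and 3.35 CPM in untreated and 8.23 and 5.36 CPM in treated wild-type cells, and 6.15 and 6.76 CPM in untreated and 20.9 and 24.3 CPM in treated knockout cells. Its knockout values were thus higher with and without dTAG-13, and the untreated log2 difference was 0.91 (adjusted p = 0.442). Without treated wild-type A 10 members were called, and without treated knockout B 0.

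Without treatment no member passed. Of the 53 members 0 passed between untreated knockout and wild-type cells by edgeR and 0 by DESeq2, against 0.00815% of all genes by edgeR. At an unadjusted p under 0.05 there were 3 members, with no share of all genes given at that threshold. The median log2 difference was −0.08, with 17 members positive.

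Poly(A) RNA held few reads of these genes. Of the 61 members 58 had a row in the RNA table, and together they had 711 and 588 counts in untreated and 678 and 618 in treated wild-type cells, which is 26.8 to 35.6 CPM. The highest single count was 87, for H4c9, and H3c14 was at 0 throughout. Of 26 members tested, 0 passed by edgeR (0 at an unadjusted p under 0.05) and 0 by DESeq2, against 0.163% of all genes. A selection for poly(A) tails leaves out stem-loop mRNAs, so these counts do not measure the histone mRNA level, and footprint changes could not be divided by it. More mRNA and more ribosomes per mRNA cannot be told apart here.

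The histone mRNA pathway runs from transcription to decay. In wild-type cells 4 of 40 tested genes rose and 2 fell, beside 2.94% and 1.94% of all genes, with a median log2 change of 0.10. Those with the smallest p were Eif4g1, an initiation scaffold (1.19, adjusted p = 0.00177), the exonuclease gene Xrn1 (1.014, adjusted p = 0.00244) and Sympk, a scaffold of 3′ end cleavage (−0.75, adjusted p = 0.00898). In the knockout 3 rose and 3 fell, beside 3.16% and 5.71% of all genes, with a median of 0.05, led by Pnrc2 (2.42, adjusted p = 0.000395), the uridylyltransferase gene Tut4 (−0.93, adjusted p = 0.00155) and the small nuclear ribonucleoprotein gene Snrpb (−0.73, adjusted p = 0.00554). Slbp changed by −0.02 in wild-type (adjusted p = 0.952) and −0.37 in knockout cells (adjusted p = 0.0863). It was the 1 gene of 40 that differed between treated genotypes (−0.56, adjusted p = 0.0301), where 1.86% of all genes were higher and 1.92% lower.

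S phase genes are given because histone genes are active in that phase. Of 30 tested, 7 rose in wild-type (all genes 2.94%) and 2 in knockout cells (3.16%), and 0 fell in either (1.94% and 5.71%). They were led by the helicase gene Mcm4 (0.79, adjusted p = 0.01), the polymerase gene Pola1 (0.91, adjusted p = 0.0109) and Mcm7 (0.59, adjusted p = 0.0132) in wild-type cells, and were Dtl (0.62, adjusted p = 0.0169) and Tyms (0.51, adjusted p = 0.0362) in the knockout. Their summed level was 6832 and 7612 CPM in untreated and 9026 and 8863 CPM in treated wild-type cells, and 7590 and 7815 CPM in untreated and 8761 and 8273 CPM in treated knockout cells. It was higher in every treated library, as the core histone sum was, and its part in the histone result was not tested. Nor was that of library depth, which was lower in every treated library.

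Few of the other histones were called. Of 5 linker histone genes only H1f5 rose, by 1.18 in wild-type (adjusted p = 0.00226) and 1.60 in knockout cells (adjusted p = 0.000216), and H1f2 fell by 0.70 in the knockout (adjusted p = 0.0207). Of 8 replacement histone genes, most of whose mRNAs are polyadenylated and made outside S phase as well, 0 were called in either genotype, with median log2 changes of −0.08 and 0.22.

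The 8 members under the low-count filter were H2ac18 (28 counts over the 8 libraries), H4c17 (19), H2bc24 (8), H2ac19 (2), H2ac25 (1) and H2ac23, H3c14 and H3c15 (0 each). Some of these have near-identical partners, and reads that fit several copies may have been dropped, so a count of 0 does not show that a gene is silent. Just inside the filter, H2bc21 had 81 counts and was not called, and H2bc23 had 230 counts and rose in the knockout (log2 change 1.92, adjusted p = 0.0172).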

How the data were processed

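The authors deposited raw gene counts by symbol, with a table of 8 footprint libraries and a table of 4 poly(A) RNA libraries. The submitters' processing notes list the mm10 build, HISAT2 2.1.0, cutadapt and CASAVA 1.4. Which tool counted the reads, on which annotation and with what treatment of reads that fit several genes is not stated there. Library columns were assigned by genotype, treatment and letter. For treated knockout B the description gives the column of A a second time, and the letter of the title was used instead.

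Counts were fitted in edgeR 4.0.16 (R 4.3.3) with filterByExpr at a minimum count of 10, TMM scaling and robust quasi-likelihood dispersions. All 8 footprint libraries entered 1 fit by group, with 12267 genes and 4 residual degrees of freedom. The RNA libraries entered another, with 15955 genes and 2 residual degrees of freedom. P-values are two-sided and Benjamini-Hochberg adjusted over all genes tested. The script was tested on simulated data. Class sums are raw counts summed, scaled to CPM and described without a test. In every group the replicates were further apart than counting error allows, and unequally so. Chi-square per degree of freedom between replicates was 25.2 in untreated and 14.7 in treated wild-type footprints. In knockout footprints it was 17.5 untreated and 2.88 treated. The shared fit does not give these groups separate dispersions. Alternatives were DESeq2 1.42.0, other scalings, no filter, replicate letters as a block and each library left out.

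Members and lists were chosen with earlier results of these data known. Named genes were the 3 with most counts per class and the largest called rise and fall per class and genotype, and any called against its class sum. H2bc1, H2bc27, H2ac1, H3c10, H3c11, H3c13 and the pairs were picked after their values were seen. Gene positions and promoters came from RefSeq (GRCm38.p6), in which 58 of 61 members matched, H4c16 through its synonyms.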

Additional observations from a re-analysis of the deposited data

How the results depend on the processing

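Depth and 2 libraries per group limit these results, and a low-count member's change is the least certain. In knockout cells 23 of 36 calls and in wild-type cells 14 of 22 held without each library in turn, as counts of 23 to 31 and 15 to 32. The class sums without each library ranged, on the log2 scale, from 0.61 to 0.96 (H2A), 0.31 to 0.81 (H2B), 0.70 to 1.27 (H3) and 0.18 to 0.58 (H4) in wild-type cells, and from 1.02 to 1.57, 0.56 to 0.83, 1.20 to 1.35 and 0.42 to 0.86 in the knockout. Without its top member the H2B sum changed by 0.81 and 1.15, and that of H3 in the knockout by 1.38. With library totals, the full H3 sum changed by 1.14 in the knockout.

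Without the low-count filter 34 members were called in wild-type cells, 4 for the difference between genotypes, 1 between untreated genotypes and 14 between treated ones. DESeq2 called 2 for the difference and 5 between treated genotypes. The 4 wild-type libraries alone gave 2 calls, whereas the 4 knockout libraries alone kept all 36 knockout calls. Between treated genotypes, leaving out 1 library gave 0 to 10 calls. The cause of these shifts was not tested, and the share of all genes called under these settings is not given here. The class sums and the called changes of named genes kept their direction under these alternatives. Changes that had not passed did not all do so: without treated wild-type A the wild-type change was −0.21 for H2bc18 and −0.17 for H4c4, and those of H4c14 and H4c16 were 0.11 and 0.10 without treated wild-type B. With library totals in place of TMM, 21 members rose in wild-type cells and 32 rose and 1 fell in the knockout.

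The labels tie the letters A and B to no batch or day, so the tests treat libraries as unpaired. The correlation across genes of A minus B between untreated and treated libraries was 0.49 in wild-type cells, whose same-lettered libraries thus deviated together, and 0.10 in the knockout. With the replicate block 26 members were called in wild-type cells, 36 in the knockout and 4 between treated genotypes, and H2ac4 lost its knockout call. A block within each genotype, chosen after seeing the data, gave 14 calls for the difference between genotypes, 13 of them larger in the knockout. The share of all genes called with these blocks is not given here, so the counts are not particular to the histones on this showing.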

Other observations

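Histone chaperones, which carry histones from the ribosome to DNA, had 3 of 28 genes called in each genotype, with no gene called in both, and median log2 changes of 0.09 in wild-type and in knockout cells. The difference between the changes passed for 0 of 28 genes by edgeR. In wild-type cells 3 rose, against 2.94% of all genes, which were Ncl (log2 change 0.85, SE 0.149, adjusted p = 0.00712), Atrx (0.83, SE 0.147, adjusted p = 0.00712) and Hjurp (0.52, SE 0.125, adjusted p = 0.0334), and 0 fell. In the knockout 0 rose and 3 fell, against 5.71% of all genes falling, which were Ubn1 (−0.96, SE 0.199, adjusted p = 0.0104), Asf1b (−0.65, SE 0.148, adjusted p = 0.0158) and Anp32e (−0.54, SE 0.127, adjusted p = 0.02). Between treated genotypes Atrx (−0.77), Anp32e (−0.67) and Set (−0.59) were lower in the knockout, against 1.92% of all genes. The replacement histone gene H2az2 was higher (0.99, adjusted p = 0.00693), against 1.86% of all genes. H2az2 was also higher without treatment, at 128 and 116 CPM in knockout and 94.4 and 68.9 CPM in wild-type cells.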
